A study of Homo sapiens with 12 samples.

Results

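The 10 genes described here encode the 5 subunits of the transcription factor NF-kB (NFKB1, NFKB2, REL, RELA and RELB) and 5 proteins that restrain or tune it (NFKBIA, NFKBIZ, TNFAIP3, BIRC3 and TNIP1). They were chosen by name, and each gene's level is the sum of its deposited transcripts assigned by GENCODE. All 10 were found among 57527 genes with a matched transcript, and all 10 passed the filter on low values that left 16789 genes for testing. NF-kB dimers wait in the cytoplasm bound to IkB proteins such as NFKBIA. Inflammatory receptors activate the IkB kinase, which marks IkB for destruction and frees dimers of RELA and NFKB1 (the canonical pathway), while a slower, non-canonical pathway through the kinase MAP3K14 processes NFKB2 and releases dimers of RELB. Several of the restraining genes are themselves induced by NF-kB, which gives the pathway its negative feedback, and in kidney tubule cells it drives chemokine and cytokine genes after injury.

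mRNA was measured in HK-2 cells, an immortalised human proximal tubule epithelial line, after 72 h in medium with no addition (control) or with 60, 120 or 240 ug/ml 2,8-dihydroxyadenine (DHA), a purine of low solubility whose crystals build up in kidneys that lack adenine phosphoribosyltransferase. There were 3 libraries in every group and 12 altogether. No source used here says that the 3 libraries were separate cultures, so the spread behind the p-values may be technical, and HK-2 is a cultured line that stands for tubule epithelium only in part. Levels are in the deposited normalised signal, which resembles TPM (transcript abundance scaled for length and library size), although no source names the unit, and read depth is unknown.

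Of 16 proximal tubule and epithelial markers 10 passed the filter. PAX8, GGT1, EPCAM, KRT18 and KRT19 were well above it, whereas LRP2 and SLC22A6 were listed at 0 in every library and CUBN, AQP1 and ANPEP did not exceed 0.5, so several markers that define the mature proximal tubule were at or near 0. At 240 ug/ml limma called 5 of the 10 lower and none higher (1 higher at an unadjusted p under 0.05), where 23.5% of all tested genes were lower, and the median log2 fold change against control was -0.41. The 5 were CDH1 (-1.19), KRT8 (-1.05), GGT1 (-0.82), SLC5A2 (-0.68) and EPCAM (-0.55). Of 12 markers of other cell types, CD68 and DCN passed the filter and both were lower at 240 ug/ml than in control, by log2 fold changes of -0.61 and -1.68; in bulk RNA, fewer cells of a type and less RNA per cell cannot be told apart. The leukocyte gene PTPRC, the T cell gene CD3E and the tubule genes UMOD and AQP2 were at 0 in all 12 libraries. Library totals of the deposited signal ran from 791808 to 969479 at 240 ug/ml, against 1143850 to 1228979 in control, and the part of these shifts in the results below was not tested beyond the scaling alternatives given.

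The regulatory DNA of these genes was read from RefSeq promoter windows of GRCh38.p14, each with 250 bases before and 50 after a transcription start. Windows were found for 9 of the 10 genes, 15 windows in all, and RELB had no entry. The windows were searched on both strands for the kappa B consensus, the general 10-base sequence that NF-kB dimers bind. The consensus matched in 10 of the 15 windows and in 11.3% of all 35116 windows searched. The 10 windows belong to 8 of the 9 genes, where 13.3% of all 27305 genes with a window had a match. RELA had no match in its windows. A match is a description of letters and not a measured binding site. Positions are from RefSeq starts, and some GENCODE transcripts begin earlier, TNFAIP3-206 at -71 and TNIP1-201 and TNIP1-218 at -6124. By GENCODE, untranslated exons cover all 30 bases printed below for TNFAIP3 and for NFKBIZ start 2. They cover 28 for TNIP1, 27 for REL, 11 for NFKB2 start 3, 1 for NFKB1 and 0 for NFKBIA and BIRC3.

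The following 30-base stretches show the matches nearest to a start that the results refer to, 5′ to 3′ on the strand of the gene, with the matched letters in capitals, where 11 capitals in a run are 2 overlapping matches and the TNFAIP3 stretch holds 2 separate ones.
NFKB1, chr4:102501300-102501329, plus strand: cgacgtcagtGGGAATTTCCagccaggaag
NFKB2 start 3, chr10:102395674-102395703, plus strand: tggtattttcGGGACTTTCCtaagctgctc
REL, chr2:60881518-60881547, plus strand: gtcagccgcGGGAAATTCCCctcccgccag
NFKBIA, chr14:35404811-35404840, minus strand: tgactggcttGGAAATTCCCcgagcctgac
NFKBIZ start 2, chr3:101849265-101849294, plus strand: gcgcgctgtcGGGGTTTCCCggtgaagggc
TNFAIP3, chr6:137867188-137867217, plus strand: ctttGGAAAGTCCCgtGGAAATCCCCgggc
BIRC3, chr11:102317339-102317368, plus strand: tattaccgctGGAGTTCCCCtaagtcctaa
TNIP1, chr5:151081057-151081086, minus strand: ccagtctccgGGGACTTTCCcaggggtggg

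The NFKBIZ gene has 2 starts that are used by transcripts of similar level, and the 250 bases before the upstream start are shown whole because the transcript that begins there differed between doses.
NFKBIZ start 1, chr3:101827740-101827989, plus strand: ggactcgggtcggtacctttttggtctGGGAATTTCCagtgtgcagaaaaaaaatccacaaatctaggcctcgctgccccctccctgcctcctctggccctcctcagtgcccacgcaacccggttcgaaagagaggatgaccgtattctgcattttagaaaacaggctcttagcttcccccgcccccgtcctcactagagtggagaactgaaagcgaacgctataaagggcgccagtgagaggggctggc
Its match begins at position -223 from the start, and the match before NFKBIZ start 2 at -239. Among the other genes the first positions ran from -199 in BIRC3 to -21 before NFKB2 start 3.

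**Figure D1:**
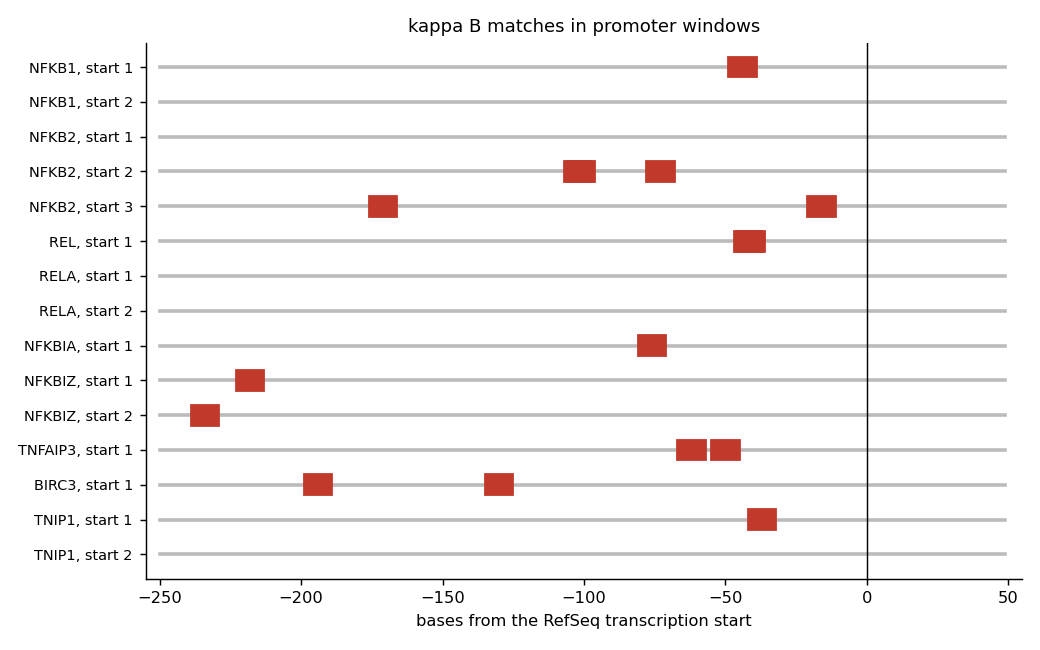
Positions of kappa B matches (boxes) in 15 RefSeq promoter windows of 9 genes, as bases from the transcription start. First positions run from -239 before NFKBIZ start 2 to -21 before NFKB2 start 3, and the match before NFKBIZ start 1 is at -223.

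In control cells the genes spanned a wide range of levels. NFKBIZ, a nuclear IkB protein that modulates a subset of NF-kB targets, was highest at 212.4 ± 3.59 (SD, n = 3 here and throughout). TNIP1, a ubiquitin-binding partner of TNFAIP3, stood at 93.1 ± 1.31, NFKBIA at 74.9 ± 2.48 and RELA, which carries the main transactivation domain, at 45.4 ± 1.55. NFKB2 (27.4 ± 1.80), NFKB1 (25.0 ± 3.06) and RELB (22.6 ± 1.04) followed, and the libraries of neighbouring genes in that trio overlapped. BIRC3, a ubiquitin ligase (also called cIAP2), had 13.5 ± 1.58 and TNFAIP3, the ubiquitin-editing enzyme A20, 7.43 ± 1.79. REL, the lymphoid-enriched subunit c-Rel, was lowest at 1.27 ± 0.35. Apart from the trio, the libraries of neighbouring genes in this order did not overlap.

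**Figure D2:**
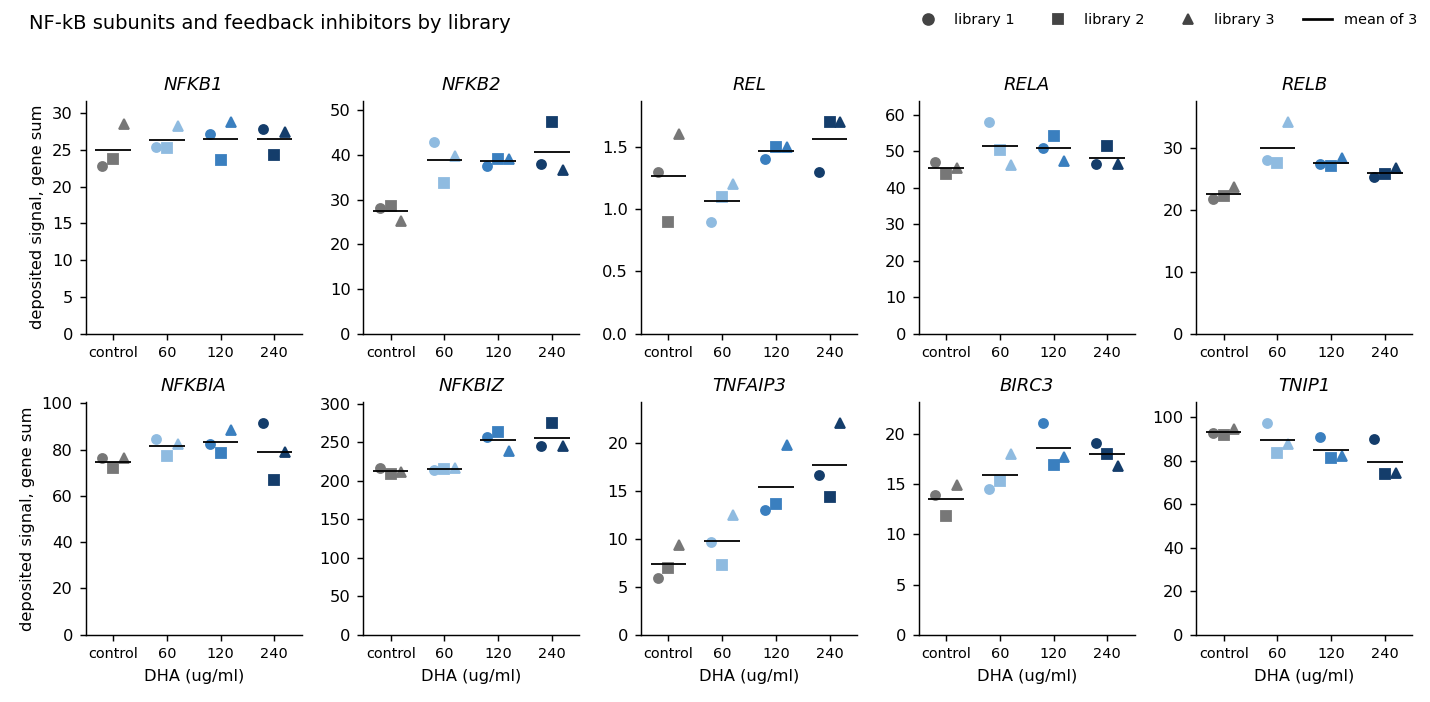
Deposited signal summed per gene in each of the 12 libraries, by DHA dose, with a line at the mean of 3 libraries and a separate vertical axis from 0 for each gene. TNFAIP3 climbs from the lowest to the highest dose, NFKB2 is already at its higher level at 60 ug/ml, and NFKB1 stays in one band.

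The clearest change among the inhibitors was in TNFAIP3, which removes activating ubiquitin chains from signalling adaptors and so shuts off the IkB kinase. The gene (ENSG00000118503.14) lies on chromosome 6, 137867188 to 137883312, plus strand of GRCh38. Its signal was 5.9, 7.0 and 9.4 in control, 9.7, 7.3 and 12.5 with 60 ug/ml DHA, 13.0, 13.6 and 19.8 with 120 ug/ml DHA, and 16.7, 14.4 and 22.1 with 240 ug/ml DHA. Every library at 120 and 240 ug/ml was above every control, and the libraries at 60 ug/ml overlapped the controls. On the log2(value + 1) scale of the fit TNFAIP3 rose by 0.96 at 120 ug/ml (SE 0.22, limma adjusted p = 0.00609) and by 1.15 at 240 ug/ml (limma adjusted p = 0.0017), a fold of 2.22 on the value + 1 scale at the highest dose. At 60 ug/ml the difference was 0.35 (95% interval -0.14 to 0.85, limma adjusted p = 0.312). It passed with a block for replicate number in the fit (0.35, limma adjusted p = 0.0354), and with the GC trend subtracted as well (0.40, limma adjusted p = 0.0237). The highest dose was also above the lowest, by 0.80 (limma adjusted p = 0.0243), a call lost under 5 alternatives, including without the first or second library at 60 ug/ml or the third at 240 ug/ml (0.62 to 0.80, limma adjusted p = 0.0686 to 0.102). Library number 3 held the highest TNFAIP3 value in all 4 groups, a pattern that RELB shared and that 5.91% of all tested genes showed.

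BIRC3 encodes a ubiquitin ligase that is recruited to TNF receptors and, with its paralog BIRC2, holds MAP3K14 low in resting cells. Its gene (ENSG00000023445.13) lies on chromosome 11, 102317450 to 102339403, plus strand. Its signal was 13.9, 11.8 and 14.9 in control, 14.5, 15.3 and 18.0 with 60 ug/ml DHA, 21.1, 16.9 and 17.7 with 120 ug/ml DHA, and 19.1, 18.0 and 16.8 with 240 ug/ml DHA. All libraries at the upper 2 doses were above all controls. Of the BIRC3 sum, the short transcripts BIRC3-203 (549 bases) and BIRC3-202 (624 bases) each held 34.5%, and the long coding transcripts were not called. The sum rose by 0.43 at 120 ug/ml (SE 0.11, limma adjusted p = 0.0121) and by 0.39 at 240 ug/ml (limma adjusted p = 0.0166), and the 0.22 at 60 ug/ml did not pass (limma adjusted p = 0.208). Neither call held without control replicate 2 (0.34 at 120 ug/ml, limma adjusted p = 0.0549, and 0.30 at 240 ug/ml, limma adjusted p = 0.0742). The call at 120 ug/ml was also lost without the first library of that dose (0.34, limma adjusted p = 0.0542), and that at 240 ug/ml without the first library of that dose (0.35, limma adjusted p = 0.0557) and with protein-coding transcripts alone (0.27, limma adjusted p = 0.0998). The 2 upper doses were close to each other, at 18.0 ± 1.15 for 240 ug/ml and 18.6 ± 2.23 for 120 ug/ml. BIRC3 is GC-poor, at 40.9% on the 15th percentile of tested genes. With the GC trend of each library subtracted it passed at 60 ug/ml (0.38, limma adjusted p = 0.0267), and with a replicate block as well (0.38, limma adjusted p = 0.0219).

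NFKBIZ (ENSG00000144802.11, chromosome 3, 101827991 to 101861022, plus strand) had 216.4, 209.4 and 211.5 in control, 214.4, 215.8 and 216.8 with 60 ug/ml DHA, 257.2, 263.9 and 239.1 with 120 ug/ml DHA, and 245.9, 275.2 and 245.1 with 240 ug/ml DHA. The values at 60 ug/ml overlapped the controls, and every value at 120 and 240 ug/ml lay above both groups. NFKBIZ rose by 0.25 at 120 ug/ml (SE 0.07, limma adjusted p = 0.0163) and 0.26 at 240 ug/ml (limma adjusted p = 0.011), and was 0.24 higher at 240 than at 60 ug/ml (limma adjusted p = 0.0296), which did not pass under 9 alternatives. The call at 120 ug/ml was lost without control replicate 2 (limma adjusted p = 0.0559) and without the first or second library of that dose (limma adjusted p = 0.0559 and 0.0618). When protein-coding transcripts alone were summed these changes were 0.07 at 120 ug/ml (limma adjusted p = 0.542) and 0.12 at 240 ug/ml (limma adjusted p = 0.285), so the call rests on the retained-intron transcripts as well.

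NFKBIA, the IkB alpha protein that sequesters RELA, did not pass at any dose in the main fit. It had 76.4, 72.0 and 76.2 in control, 84.7, 77.3 and 82.5 with 60 ug/ml DHA, 82.4, 78.6 and 88.7 with 120 ug/ml DHA, and 91.5, 66.7 and 79.0 with 240 ug/ml DHA. Libraries at 60 and 120 ug/ml were above all controls, but the spread at 240 ug/ml was wide, with an SD of 12.4 against 2.48 in control, and those libraries overlapped. The difference at 240 ug/ml was 0.07 (95% interval -0.16 to 0.29, limma adjusted p = 0.628), and -0.04 without the first library of that dose. With equal library totals NFKBIA passed as higher at 60, 120 and 240 ug/ml (0.32, 0.51 and 0.49). Quantile normalization gave a call at 120 ug/ml (0.23, limma adjusted p = 0.0496). It passed at 120 and 240 ug/ml with the length trend subtracted (0.31 and 0.26). The same held with a replicate block and the GC trend subtracted (0.23 and 0.19).

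TNIP1 was the only gene of the 10 with a negative difference at all 3 doses. Its signal was 92.9, 91.9 and 94.5 in control, 97.4, 83.8 and 87.8 with 60 ug/ml DHA, 91.2, 81.4 and 82.3 with 120 ug/ml DHA, and 90.1, 74.0 and 74.5 with 240 ug/ml DHA. All libraries at 120 and 240 ug/ml were below all controls, and the difference at 240 ug/ml, -0.23, did not pass (SE 0.09, limma adjusted p = 0.0571). With each library scaled to an equal total the difference at 120 ug/ml was 0.23, against -0.13 in the deposited scaling, and it passed in that direction (limma adjusted p = 0.0478), and at 60 and 240 ug/ml it was 0.15 and 0.20, so the direction of TNIP1 depends on the scaling.

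Among the subunits NFKB2, the p100 precursor of the non-canonical pathway, rose at every dose. The gene (ENSG00000077150.18) lies on chromosome 10, 102394110 to 102402529, plus strand. Its signal was 28.2, 28.6 and 25.3 in control, 42.9, 33.8 and 39.8 with 60 ug/ml DHA, 37.5, 39.1 and 39.2 with 120 ug/ml DHA, and 37.9, 47.4 and 36.7 with 240 ug/ml DHA. No treated library overlapped a control, and the treated groups overlapped each other. The log2 fold changes were 0.49 at 60 ug/ml (SE 0.11, limma adjusted p = 0.0106), 0.48 at 120 ug/ml (limma adjusted p = 0.00502) and 0.55 at 240 ug/ml (limma adjusted p = 0.00193). The highest dose differed from the lowest by 0.06 (95% interval -0.18 to 0.30, limma adjusted p = 0.713).

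RELB (ENSG00000104856.13, chromosome 19, 45001430 to 45038198, plus strand) is the partner of processed NFKB2. In the main fit RELB differed most from control at the lowest dose, an order that alternatives given below did not keep. It had 21.8, 22.3 and 23.8 in control, 28.2, 27.7 and 34.3 with 60 ug/ml DHA, 27.5, 27.1 and 28.5 with 120 ug/ml DHA, and 25.3, 25.9 and 26.8 with 240 ug/ml DHA. Every treated library was above every control, and every library at 240 ug/ml was below every library at 60 ug/ml. The 34.3 in the third library at 60 ug/ml included 7.0 from the short transcript RELB-206, which was 0 in every control. The main transcript RELB-207 rose by 0.28 at 60 ug/ml (limma adjusted p = 0.137) and by 0.33 at 120 ug/ml (limma adjusted p = 0.0378). RELB rose by 0.39 at 60 ug/ml (SE 0.08, limma adjusted p = 0.00854) and 0.28 at 120 ug/ml (limma adjusted p = 0.0207). The 0.19 at 240 ug/ml did not pass in the main fit (limma adjusted p = 0.0828), but RELB passed at that dose under 5 alternatives. These included equal library totals (0.61, limma adjusted p = 0.00113), a replicate block (0.19, limma adjusted p = 0.0357) and the length trend subtracted (0.29, limma adjusted p = 0.0197). The difference between 240 and 60 ug/ml did not pass (-0.20, limma adjusted p = 0.106), and was 0.02 with equal library totals and 0.05 with the GC trend subtracted. RELB is GC-rich, at 65% on the 96th percentile of tested genes, and fold changes at 60 ug/ml correlated with GC content across genes (r = 0.26). With the GC trend of each library subtracted RELB no longer passed at 60 ug/ml (0.24, limma adjusted p = 0.202) or at 120 ug/ml (0.26, limma adjusted p = 0.105). With a replicate block as well, it was 0.24 at 60 ug/ml (limma adjusted p = 0.0571) and 0.29 at 240 ug/ml (limma adjusted p = 0.0121). The call at 120 ug/ml was also lost without control replicate 1 or 2 and without library 1 or the third library of that dose (0.26 to 0.29, limma adjusted p = 0.0508 to 0.0728).

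The canonical subunits showed no called change in the main fit. NFKB1, the p105 precursor of p50, had 22.8, 23.7 and 28.5 in control, 25.4, 25.2 and 28.3 with 60 ug/ml DHA, 27.1, 23.6 and 28.8 with 120 ug/ml DHA, and 27.8, 24.3 and 27.5 with 240 ug/ml DHA. The groups overlapped throughout, and the difference at 240 ug/ml was 0.09 (95% interval -0.14 to 0.31, limma adjusted p = 0.531), and -0.02 with the length trend subtracted. RELA had 46.9, 43.8 and 45.5 in control, 58.0, 50.2 and 46.2 with 60 ug/ml DHA, 50.8, 54.2 and 47.2 with 120 ug/ml DHA, and 46.4, 51.4 and 46.5 with 240 ug/ml DHA. Its libraries at 120 ug/ml lay just above the controls, and its differences of 0.17, 0.16 and 0.08 in order of dose did not pass (limma adjusted p = 0.212, 0.198 and 0.5). REL ranged from 0.9 to 1.7 over the 12 libraries, close to the limit of the filter, and passed in no comparison. A p that misses the threshold does not show that these genes were unchanged, and the intervals allow differences up to 0.28 for RELA and 0.31 for NFKB1 at 240 ug/ml.

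**Figure D3:**
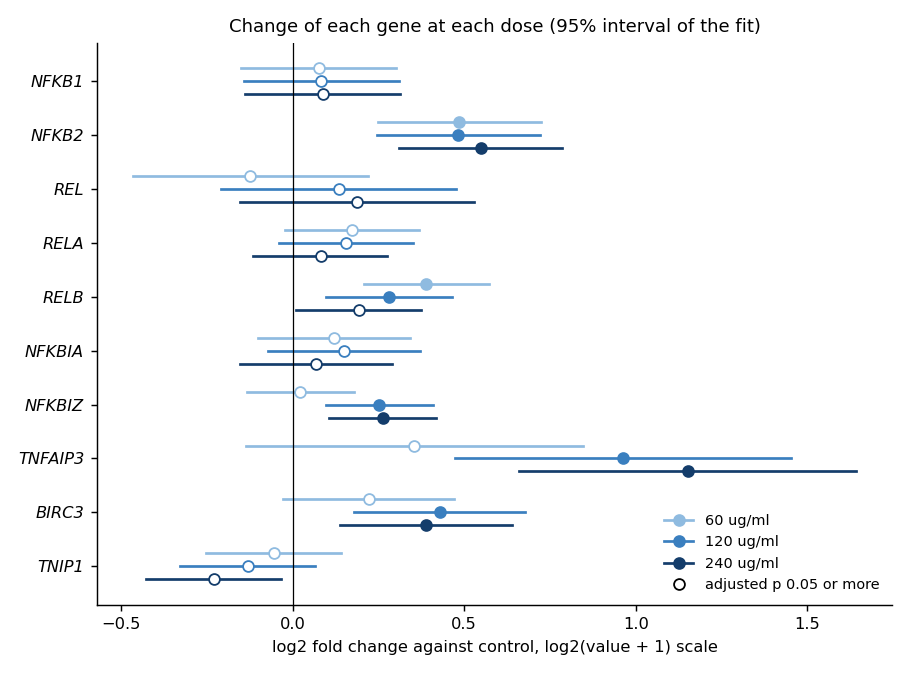
Log2 fold change of each gene at 60, 120 and 240 ug/ml against control (points) with the 95% interval of the limma fit (lines), filled where the adjusted p was under 0.05. NFKB2 is filled at 3 doses, TNFAIP3, NFKBIZ and BIRC3 at the upper 2, and RELB at the lower 2.

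Counted together, 2 of the 10 genes were called higher at 60 ug/ml, where 18.9% of all tested genes were called and 8.89% were called higher. At 120 ug/ml 5 were called higher (36.7% of all genes called, 15.9% higher), and at 240 ug/ml 4 (43.1% called, 19.7% higher). None was called lower by limma at any dose, where 10.0%, 20.8% and 23.5% of all genes were called lower in order of dose, and at an unadjusted p under 0.05 the counts of lower genes were 0, 0 and 1. The median of the 10 was 0.15, 0.20 and 0.19 in order of dose, against -0.03 over all tested genes at each dose. At 240 against 60 ug/ml 2 were called higher, TNFAIP3 and NFKBIZ, and none lower by limma (1 at an unadjusted p under 0.05), with 24.8% of all genes called, 11.7% higher and 13.1% lower. Every treated library lay above every control in 3 of the 10 genes at 60 ug/ml (16.2% of all genes), 7 at 120 ug/ml (21.7%) and 5 for 240 ug/ml (24.2%), and every one lay below in 0, 1 and 1 in order of dose (20.3%, 27.3% and 28.7% of all genes). Across the 4 groups limma's F statistic called NFKB2, RELB, NFKBIZ, TNFAIP3 and BIRC3, 5 of 10, against 42.7% of all genes. The comparisons with control share their 3 control libraries. The count at 120 ug/ml was 2 without control replicate 2 and 2 without the first library at 120 ug/ml. In those fits 2047 and 2144 of all 16789 tested genes were higher. Scaling all libraries to the same total shifted the all-gene median to 0.14, 0.27 and 0.33 in order of dose and gave 4, 9 and 8 higher genes. With that scaling 2782, 6090 and 7205 of all 16789 tested genes were higher, against 1492, 2670 and 3306 in the main fit.

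Summing transcripts hides which of them moved, so each of the 47 transcripts of these genes with a mean of at least 1 was tested over all 61128 transcripts that passed the filter. At 60 ug/ml 1 was called higher and 0 lower by limma, where 1.68% of all transcripts were called higher and 1.75% lower. The counts were 6 and 0 at 120 ug/ml (6.76% and 8.13% of all), 9 and 1 at 240 ug/ml (9.74% and 10.6%), and 1 and 0 at 240 against 60 ug/ml (2.58% and 3.40%). Transcript estimates without depth are less certain than gene sums, since reads shared between transcripts of a gene must be divided.

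NFKB2-201 is the main protein-coding transcript of NFKB2 and begins 1 base after RefSeq start 3, just downstream of the match printed for that start. It had 15.9, 16.3 and 13.4 in control, 25.7, 20.8 and 24.3 with 60 ug/ml DHA, 26.0, 23.5 and 21.8 with 120 ug/ml DHA, and 21.6, 23.4 and 21.9 with 240 ug/ml DHA. Treated libraries did not overlap control at any dose, and the log2 fold changes were 0.60, 0.61 and 0.53 in order of dose (limma adjusted p = 0.0177, 0.00456 and 0.00692). NFKB2-204, which begins at the first RefSeq start, averaged 2.93 ± 0.64 at 240 ug/ml and 2.90 ± 0.53 in control and was not called.

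The 2 full-length NFKBIZ transcripts differ in their starts. NFKBIZ-203 begins 3 bases after the upstream start and had 51.0, 50.8 and 61.6 in control, 43.7, 53.6 and 58.6 with 60 ug/ml DHA, 58.1, 48.2 and 53.8 with 120 ug/ml DHA, and 74.6, 73.5 and 70.7 with 240 ug/ml DHA. The 3 libraries at 240 ug/ml stood above all the others, with a log2 fold change of 0.42 against control (SE 0.12, limma adjusted p = 0.0309) and 0.49 against 60 ug/ml (limma adjusted p = 0.0399). NFKBIZ-202, from the downstream start, averaged 60.0 ± 7.48 at 240 ug/ml and 66.9 ± 9.91 in control and was not called; whether the 2 transcripts changed differently was not tested. NFKBIZ-203 made up 28.6% ± 1.82 of the gene sum at 240 ug/ml and 25.7% ± 3.03 in control, and NFKBIZ-202 23.5% ± 1.41 and 31.5% ± 4.62. The retained-intron transcript NFKBIZ-210 rose by 0.52 at 120 ug/ml and 0.53 at 240 ug/ml, NFKBIZ-211 by 0.57 at 120 ug/ml and NFKBIZ-205 by 0.44 at 240 ug/ml. Protein-coding transcripts held 59.2% of the NFKBIZ sum.

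TNFAIP3-201, the main coding transcript of TNFAIP3, rose by 0.98 at 120 ug/ml and 1.20 at 240 ug/ml (limma adjusted p = 0.0491 and 0.0162), with 8.97 ± 2.11 at 240 ug/ml and 3.40 ± 1.35 in control. In BIRC3 the called transcript was the 549-base BIRC3-203, with 6.53 ± 1.00 at 240 ug/ml and 3.73 ± 0.42 in control (0.67, limma adjusted p = 0.0312). The long coding transcripts BIRC3-206 and BIRC3-201 were not called, at 2.10 ± 0.35 and 2.17 ± 0.51 at 240 ug/ml, against 2.73 ± 0.40 and 2.23 ± 0.21 in control. The remaining calls were NFKB2-202 and NFKB2-207 (0.68 and 0.71), RELA-209 (0.51) and, lower, TNIP1-218 (-0.60) at 240 ug/ml, and RELB-207 (0.33) at 120 ug/ml.

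**Figure D4:**
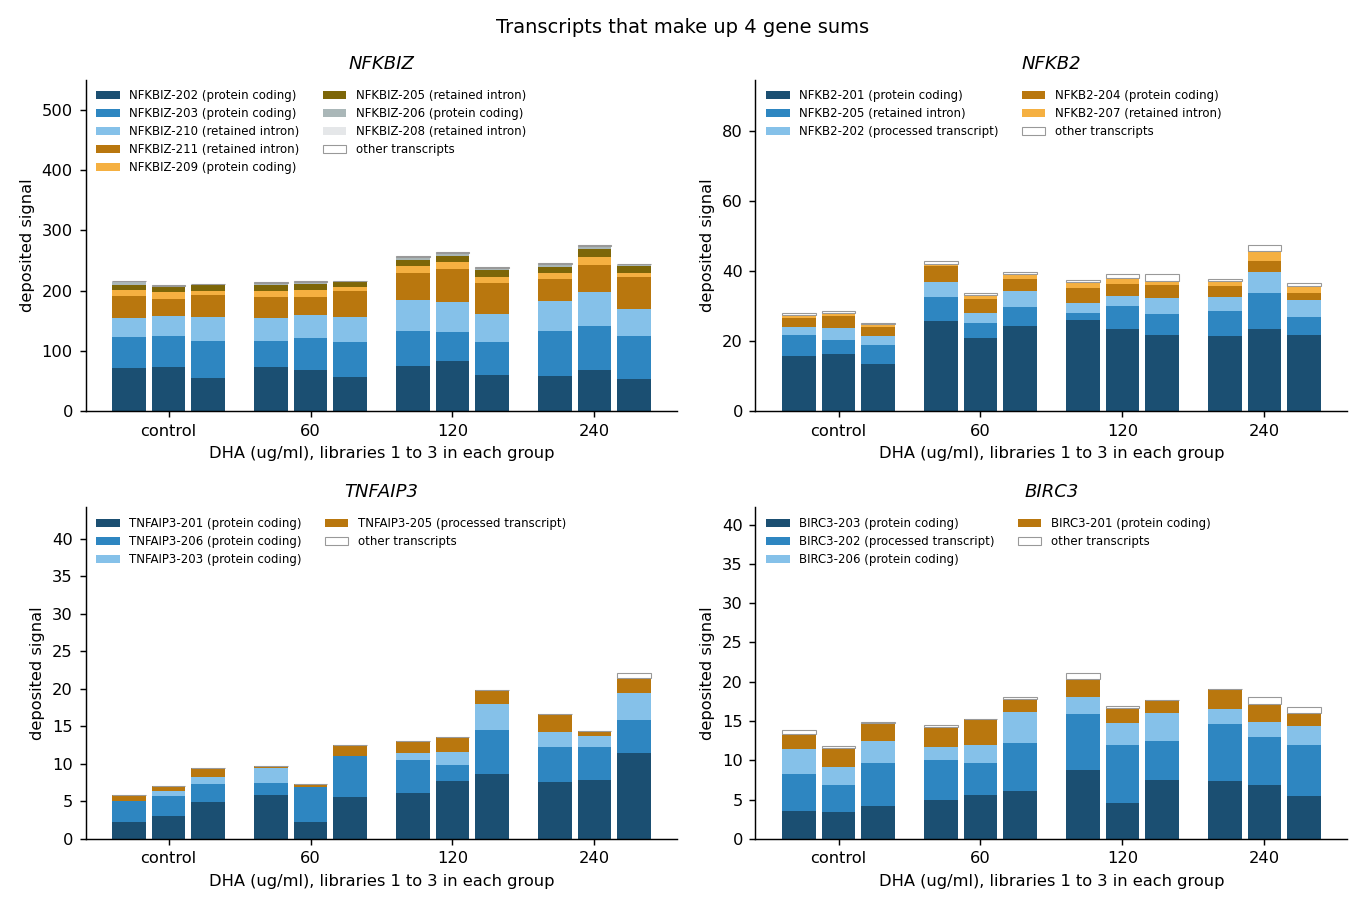
Deposited signal of each transcript with a mean of at least 1, stacked per library, for NFKBIZ, NFKB2, TNFAIP3 and BIRC3, with the 3 libraries of each dose side by side. NFKB2-201 and TNFAIP3-201 thicken with treatment, and the NFKBIZ-203 layer is deepest at 240 ug/ml while NFKBIZ-202 is not.

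Other parts of the pathway were counted from lists chosen by role. Of 5 other IkB proteins and cofactors 4 were tested. At 240 ug/ml 1 was higher and 1 lower, where 19.7% of all tested genes were higher and 23.5% lower. NFKBIB, an IkB protein, rose (0.39), and BCL3, a nuclear IkB protein that pairs with p50 and p52, fell (-0.63). At 60 ug/ml NFKBIE (0.35) and NFKBID (0.43) were called higher and none lower by limma, where 8.89% of all genes were higher and 10.0% lower. Both are named after their values were seen, and the 4 tested genes had a median of -0.01 at 240 ug/ml. Of 18 genes of the IkB kinase and its ubiquitin machinery, 6 were higher and 1 lower at 240 ug/ml, where 19.7% of all tested genes were higher and 23.5% lower, and the list's median was 0.12. The lower doses had fewer calls, with 2 higher and 0 lower by limma (60 ug/ml; 4 and 2 at an unadjusted p under 0.05) and 3 higher and 1 lower (120 ug/ml), where 8.89% and 15.9% of all genes were higher. Besides MAP3K14 and TBK1 these were IKBKG, the regulatory subunit of the IkB kinase (0.37 and 0.29 in order of dose), and, lower, UBE2D3 (-0.25 at 120 ug/ml), both named after their values were seen; IKBKG has a near-identical partial copy, so its assignment is uncertain. TBK1, an IkB kinase-related enzyme, rose by 0.56 and CHUK and IKBKB, the catalytic subunits of the IkB kinase, by 0.40 and 0.51. MAP3K14, the kinase that starts NFKB2 processing, had 16.3 ± 1.05 at 240 ug/ml and 11.1 ± 0.31 in control (0.51, limma adjusted p = 7.46e-04) and was also called at 60 (0.40) and 120 ug/ml (0.49). SHARPIN of the linear ubiquitin ligase fell by 0.32.

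Of 10 tested negative regulators besides those above, 2 were higher and 2 lower at 240 ug/ml, where 19.7% of all genes were higher and 23.5% lower. ITCH and N4BP1 rose (0.45 and 0.35) and RNF11 and COMMD1 fell (-0.36 and -0.998). At the lower doses no gene of this list was called higher by limma (1 at each dose at an unadjusted p under 0.05). At 60 ug/ml 4 were lower, where 10.0% of all genes were, COMMD1 (-0.83), TAX1BP1 (-0.47), CYLD (-0.44) and RNF11 (-0.35), and at 120 ug/ml 2, against 20.8% of all genes, COMMD1 (-0.98) and RNF11 (-0.40); TAX1BP1 and CYLD are named after their values were seen. The list's median was -0.06 at 240 ug/ml, against -0.03 over all genes. ITCH and RNF11 act with TNFAIP3 in the A20 ubiquitin-editing complex. Of 26 tested receptors and adaptors 7 were higher and 8 lower at 240 ug/ml, with a median of -0.02, where 19.7% of all genes were higher and 23.5% lower. The interleukin-1 receptor kinases IRAK2 and IRAK1 (0.83 and 0.80), the sensor NOD1 (0.71) and XIAP (0.62) were the highest, and the receptors IL1R1 (-0.99) and IL1R2 (-0.77), the kinase RIPK2 (-0.64) and the co-receptor IL1RAP (-0.59) the lowest.

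Of 34 tested NF-kB target genes, not counting the 10 genes themselves, 8 were higher and 12 lower at 240 ug/ml, with a median of -0.10, where 19.7% of all genes were higher and 23.5% lower. The lower doses gave 6 higher and 7 lower (60 ug/ml, with 8.89% and 10.0% of all genes) and 8 higher and 12 lower (120 ug/ml, with 15.9% and 20.8% of all genes). The growth factor CSF2 had 60.7 ± 2.02 at 240 ug/ml and 8.67 ± 2.30 in control (2.70), and the chemokine CXCL2 (1.32), the protease PLAU (1.26) and the hyaluronan-binding TNFAIP6 (1.11) also rose. The chemokine CCL2 had 1.03 ± 0.60 at 240 ug/ml and 12.7 ± 7.50 in control (-2.66), and the ubiquitin-like UBD (-2.47), complement C3 (-1.26) and SAA2 (-1.23) fell. SAA2 is nearly identical to SAA1 in sequence, so its assignment is uncertain. TNF and CXCL6 were listed at 0 in every library, and IL1B did not exceed 0.1.

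**Figure D5:**
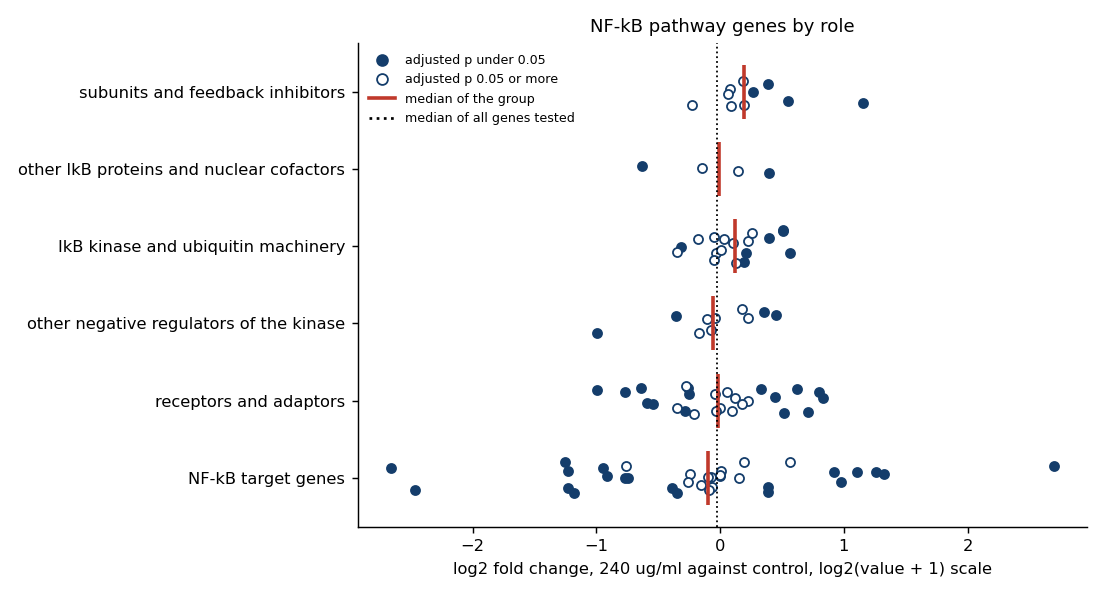
Log2 fold change at 240 ug/ml against control for each tested gene of 6 groups (points, filled where the adjusted p was under 0.05), with the group median in red and the median of all tested genes dotted. The 10 genes lie mostly to the right of the dotted line, and target genes extend from -2.66 for CCL2 to 2.70 for CSF2.

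By the root mean square difference of the 3 log2 fold changes, the tested genes whose dose pattern was nearest to TNFAIP3 were CLSPN (0.017), LINC02693 (0.034) and AKAP12 (0.034). Nearest to TNIP1 were ARFGAP1 (0.011) and the genes ENSG00000258790 (0.009) and ENSG00000174171 (0.010). The likeness was measured over 3 comparisons that share their controls.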

How the data were processed

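Per the labels' protocols, RNA came from a TRI Reagent extraction, oligo(dT) beads selected mRNA, and dUTP-marked libraries went through paired-end DNBSEQ sequencing. The deposited table gives a normalized signal for each of 267165 transcripts per library, to 1 decimal; the submitters' processing notes name GRCh38.p14, while aligner, quantifier and strand setting were not given in the sources used here; overlapping genes therefore cannot be told apart. Values keep no counts, so depth is unknown and precision rests on 3 libraries a group. Of the transcripts, 202305 (75.7%) matched GENCODE 29 and were summed per gene; these carried 93.8% to 94.7% of each library's total, and the others were not used here. Gene positions are GENCODE 29 on GRCh38. Genes reaching 1 in 3 or more libraries were tested with limma 3.58.1 (R 4.3.3), limma-trend on log2(value + 1), 1 mean per group over 12 libraries, two-sided, Benjamini-Hochberg over 16789 genes, called at 0.05. The log2(value + 1) scale understates changes of low genes. The code was tested on simulated data. Groups came from sample titles. Named were all 10 genes, the 4 highest and 4 lowest called genes of each list at 240 ug/ml, the 3 genes nearest to the highest and lowest of the 10, and transcripts with a mean of at least 1. The members and lists were chosen with earlier results of these data known. Alternatives covered pseudocount, filter, scaling, transcript choice, spread, GC, length, replicate block and each library left out.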

Additional observations from a re-analysis of the deposited data

How the results depend on the processing

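Over 24 alternatives, the 40 log2 fold changes of the 10 genes gave 956 values, of which 864 kept their direction and side of the threshold, 31 lost and 28 gained a call, and 33 changed sign. Of the 33, only TNIP1 at 120 ug/ml with equal library totals (0.233) passed the threshold. With equal totals TNIP1 was also 0.148 with 60 ug/ml and 0.196 with 240 ug/ml DHA, while at 240 against 60 ug/ml NFKBIA was 0.168, RELA 0.129, TNIP1 0.048 and RELB 0.021. With the GC trend subtracted, with or without the replicate block, REL at 60 ug/ml was 0.04, and at 240 against 60 ug/ml RELA was 0.116, NFKBIA 0.079, RELB 0.052, TNIP1 0.024 and BIRC3 -0.024. With the length trend subtracted NFKB1 was -0.022 with 240 ug/ml DHA, and at 240 against 60 ug/ml it was -0.076, where NFKBIA was 0.063. With protein-coding transcripts only NFKBIZ at 60 ug/ml was -0.04, and at 240 against 60 ug/ml NFKB1 was -0.008 and NFKB2 -0.084. Leaving out 1 library at a time gave -0.043 to 0.182 for NFKBIA at 240 ug/ml, and at 240 against 60 ug/ml -0.022 to 0.072 for NFKB1, -0.05 to 0.136 for NFKB2 and -0.164 to 0.061 for NFKBIA. NFKB2 at all 3 doses and TNFAIP3 at 120 and 240 ug/ml passed under every alternative run. With equal library totals the counts of higher genes were 4, 9 and 8 at 60, 120 and 240 ug/ml, where the deposited scaling gave 2, 5 and 4. Over all 16789 tested genes the equal totals gave 2782, 6090 and 7205 higher, and the deposited scaling 1492, 2670 and 3306. With protein-coding transcripts only, 2 were higher at 240 ug/ml, since NFKBIZ and BIRC3 (0.27, limma adjusted p = 0.0998) did not pass. In that fit 2835 of all 12168 tested genes were higher. At 240 against 60 ug/ml the count of 2 higher was 1 with no filter, with quantile normalization, with protein-coding transcripts only and with the GC trend subtracted, and 0 with only the 2 groups compared. In that order 1432 of 34520, 2187 of 16789, 1951 of 12168, 1409 of 16789 and 958 of 16789 genes were higher. Leaving out each library gave 2 to 2 higher at 60 ug/ml, 2 to 5 at 120 ug/ml, 3 to 5 at 240 ug/ml and 0 to 2 at 240 against 60 ug/ml, where it was 0 without the first or second library at 60 ug/ml or the third at 240 ug/ml and 1 without the second at 240 ug/ml; lower calls ran from 0 to 1 at 240 ug/ml and at 240 against 60 ug/ml, with the 1 in both without the first library at 240 ug/ml. With 1 library left out, 920 to 1558 of all 16789 tested genes were higher at 60 ug/ml and 2026 to 2822 at 120 ug/ml. The ranges were 2689 to 3421 at 240 ug/ml and 911 to 2412 at 240 against 60 ug/ml. Unless stated, the cause was not tested.

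Replicate numbers are shared between groups. Same-numbered libraries deviated together with r over 0.1 in 6 of 18 pairs, against 1 of 36 pairs with different numbers. Of 12 libraries, 8 were closest to a same-numbered library of another group. The main fit did not take the numbers as pairs, so any shared deviation stays in its spread, and the replicate block is given as an alternative. With the replicate block 1 gene was lower at 240 ug/ml (TNIP1, limma adjusted p = 0.0167) and 1 at 240 against 60 ug/ml (RELB, limma adjusted p = 0.0476). Of all 16789 tested genes 4275 and 2700 were lower in those comparisons. The block also gave higher calls for TNFAIP3 at 60 ug/ml (limma adjusted p = 0.0354) and RELB at 240 ug/ml (limma adjusted p = 0.0357). With the block and the GC trend subtracted 7 were higher at 240 ug/ml and 1 at 240 against 60 ug/ml, where 4241 and 1912 of all 16789 tested genes were higher. The genes added at 240 ug/ml were RELB (0.29), NFKB1 (0.20) and NFKBIA (0.19). REL was not tested under the stricter filter, which it did not pass. Depth is unknown, so no counting error could be given for low values such as REL.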
